A study of Mus musculus with 6 samples.

Results

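The genes described here are 9 components of the PI3K, AKT and mTOR pathway: PIK3CA, PIK3R1, PIK3R3, AKT1, AKT2, IRS1, IRS2, RPS6KB1 and EIF4EBP1. They were chosen by name, with earlier results of these data known. Each name matched 1 row, so that 9 of the 59458 rows of the human count table were members, and all 9 were among the 18820 human genes with enough counts to be tested. The tumours were xenografts of DU145, an established human prostate cancer cell line, grown under the skin of male nude mice, which lack a thymus but keep other host cells such as macrophages, vessels and connective tissue. The control group held 3 tumours (libraries NC10, NC4 and NC9) and the Zelnorm group 3 tumours from mice given Zelnorm by mouth each day (libraries MBZ_254, MBZ_257 and MBZ_259). Zelnorm is a brand name of tegaserod, an agonist of a serotonin receptor. The treated tumours are titled MBZ, an abbreviation that the labels do not explain, and the labels give neither a dose, the duration, nor the age of the mice. Both groups share the cell line, the host strain and the site of injection, so the tumours are a model made from 1 line. Nothing ties a library to a named animal. The p-values and standard errors weigh the difference between groups against the spread between these samples. The test estimates that spread for each gene in part from other genes, so it is not the gene's own SD alone.

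Insulin and related growth factors act on receptor kinases that phosphorylate the adaptor proteins IRS1 and IRS2. These recruit PI3K, a pair of a catalytic and a regulatory subunit, which makes a membrane lipid that brings AKT kinases to the membrane for activation. AKT relieves a brake on the mTOR complex mTORC1, which then phosphorylates the S6 kinase encoded by RPS6KB1 and the translation repressor encoded by EIF4EBP1, and so raises protein synthesis. Signalling through the pathway runs by phosphorylation, which transcript counts do not measure.

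The 6 libraries held 24602178 to 39278195 counts of human genes and 5817165 to 9228446 counts of mouse genes per tumour, and the mouse share of both was 15.1% to 23.4%. Epithelial markers were present in every tumour: KRT8 was at 1667 to 2476 CPM (counts scaled to library size) and EPCAM at 363 to 437 CPM. KLK3, the prostate-specific antigen gene, had 0 to 2 counts and the basal keratin KRT5 had 1 to 6. Markers of host tissue also had counts in the human table. Of 14 such markers 12 were testable, their summed level was 665 to 1363 CPM in controls and 304 to 1021 CPM in Zelnorm tumours (the collagen COL1A1 was at 223 to 919 CPM and COL3A1 at 40.9 to 316 CPM). Muscle markers varied widely: ACTA1 was at 2.96 CPM in NC10, 42.7 in NC4 and 23.9 in NC9. It was at 1.10 CPM in MBZ_254, 0.71 in MBZ_257 and 92.3 in MBZ_259. CKM had 4 to 1193 counts and DES 33 to 1482. The fat marker ADIPOQ and the fibroblast marker DCN were near 0, with at most 2 counts in a library, and the fat marker PLIN1 had 9 to 18. Fewer cells of a type and less RNA per cell cannot be told apart in such bulk samples. CPM is not corrected for gene length, so the levels of different genes are not compared.

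The 9 genes were present in every tumour at levels that overlapped between the groups. The smallest number of counts for any of them in a library was 574, for EIF4EBP1, and counting error alone then gives a standard deviation of 4.17% or less of the value. Between groups 6 of the 9 lay higher and 3 lower in Zelnorm tumours, with a median log2 fold change of 0.03 against 0.00 over all tested human genes, of which 49.1% lay higher. Under edgeR's quasi-likelihood test 0 of 9 passed (adjusted p = 1.00 for each), and 0 of 9 had an unadjusted p under 0.05. Over all human genes 0% were called and 1.31% had such an unadjusted p. In 0 of 9 genes did the 3 Zelnorm libraries lie apart from the 3 controls, which held for 4.82% of all human genes.

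**Figure D1:**
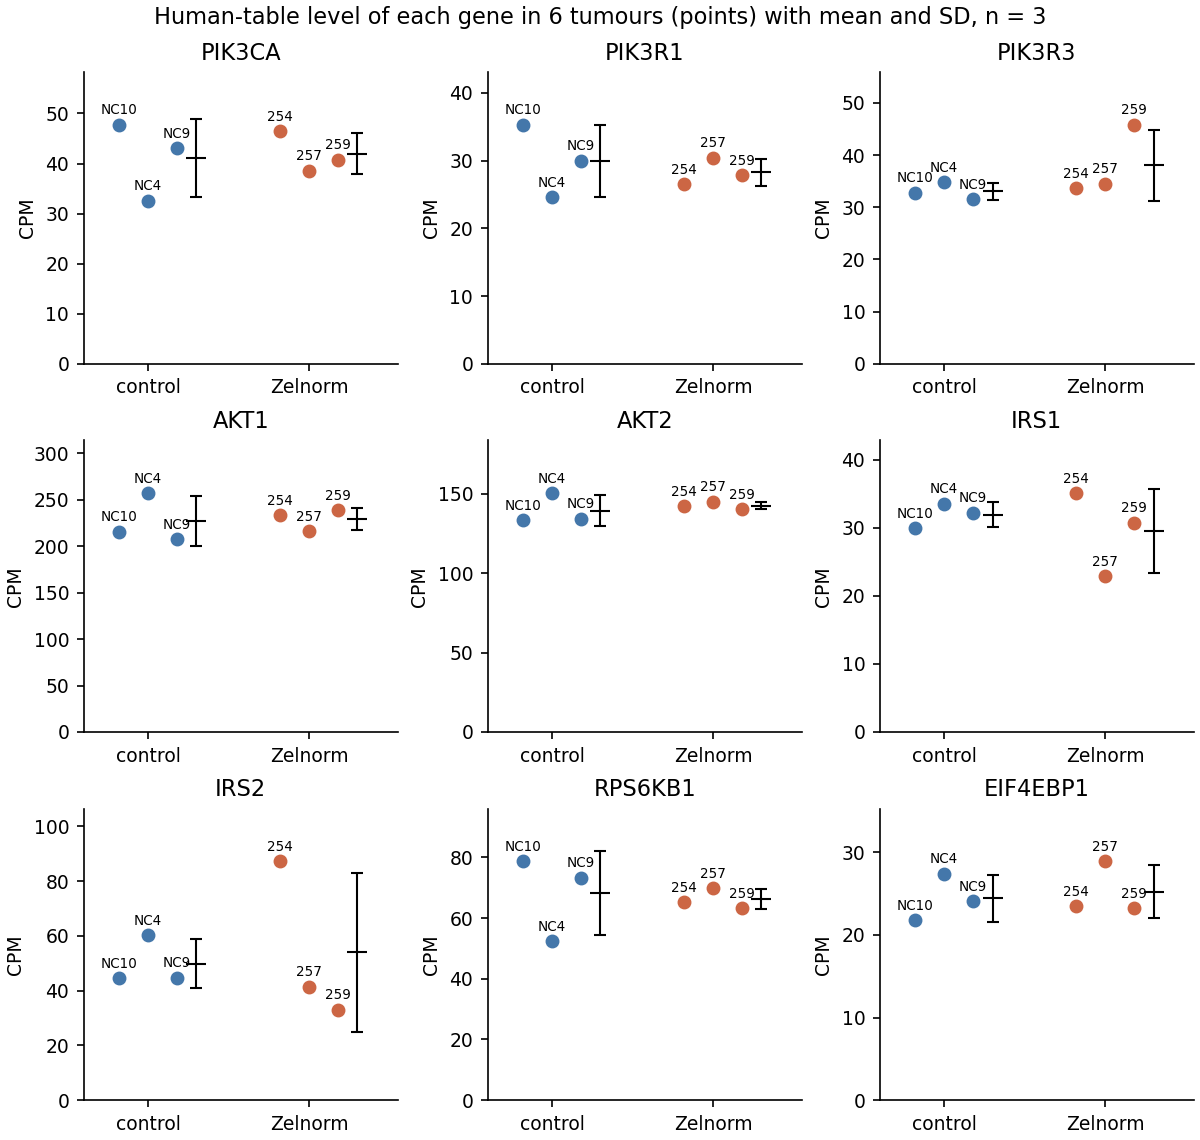
Level of each of the 9 genes in CPM on a linear axis from 0, with 1 point per tumour (blue control, orange Zelnorm; Zelnorm points carry the number of the library name) and the mean and SD of each group as a bar beside the points (n = 3). The groups overlap in all 9 panels, and IRS2 has the widest spread, from 33.1 to 87.3 CPM, both in Zelnorm tumours.

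Among the adaptors, IRS2 varied most between tumours and its highest and lowest values were both in Zelnorm tumours. It was at 44.5 CPM in NC10, 60.2 in NC4 and 44.8 in NC9, and at 87.3 in MBZ_254, 41.5 in MBZ_257 and 33.1 in MBZ_259. Its 2.64-fold range was larger than that of the other 8 genes, and 98.0% of the 10829 tested genes with a mean of at least 10 CPM had a smaller SD over the 6 tumours. The group means were 49.8 ± 8.96 CPM (control) and 53.9 ± 29.2 CPM (Zelnorm; SD, n = 3), and the log2 fold change was 0.11 (standard error, SE, 0.31; 95% interval -0.58 to 0.80; edgeR adjusted p = 1.00). The Zelnorm mean rested on MBZ_254, and without that tumour the log2 fold change was -0.42 (adjusted p = 1.00). It was 0.37 without MBZ_259, 0.27 without either MBZ_257 or NC4, 0.05 without NC9 and 0.04 without NC10.

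IRS1 was flatter, with 1 low tumour. It was at 29.9 CPM in NC10, 33.5 in NC4 and 32.3 in NC9, and at 35.1 in MBZ_254, 22.9 in MBZ_257 and 30.8 in MBZ_259. The controls lay close together while MBZ_257 was the lowest of the 6 and MBZ_254 the highest. The group means were 31.9 ± 1.83 and 29.6 ± 6.20 CPM (SD, n = 3), with a log2 fold change of -0.11 (SE 0.16; 95% interval -0.47 to 0.25; edgeR adjusted p = 1.00) that turned to 0.05 without MBZ_257 and was -0.25 without MBZ_254. MBZ_257 also had the lowest mouse share of the 6 tumours (15.1%), the lowest COL1A1 (223 CPM, against 489 to 919 in the other 5 human libraries) and the lowest level of host Irs1 in the mouse table (12.8 CPM). MBZ_254, where IRS1 was highest, had the highest mouse share (23.4%). Not every host marker in the human table followed this order. CD68 was at 29.5 CPM in MBZ_257, above NC10 (24.9), NC9 (26.8) and MBZ_259 (26.9). In MBZ_254 ACTA1 was at 1.10 CPM and CKM had 4 counts, against 92.3 CPM and 1193 counts in MBZ_259. The part of the host cells in the IRS1 values was not tested. With the ratio of mouse to human counts as a covariate, the log2 fold change of IRS1 was -0.06 (adjusted p = 1.00).

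The catalytic PI3K subunit gene PIK3CA, which encodes the alpha isoform and is often mutated in carcinomas, was at 47.7 CPM in NC10, 32.6 in NC4 and 43.1 in NC9, and at 46.5 in MBZ_254, 38.6 in MBZ_257 and 40.8 in MBZ_259. The highest and the lowest tumour were both controls. The group means were 41.1 ± 7.74 and 41.9 ± 4.07 CPM (SD, n = 3; log2 0.03, SE 0.15; 95% interval -0.32 to 0.37; edgeR adjusted p = 1.00). The sign of this difference was not stable: it was -0.11 without NC4 and -0.05 without MBZ_254, and 0.15 without NC10. Without NC9 or without MBZ_257 the log2 fold change was 0.07 and 0.08, and without MBZ_259 it was 0.05.

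PIK3R1, the main regulatory subunit, which stabilizes the catalytic subunit and holds it inactive until a receptor engages it, was at 35.3 CPM in NC10, 24.6 in NC4 and 30.0 in NC9, and at 26.5 in MBZ_254, 30.4 in MBZ_257 and 27.8 in MBZ_259. The control group alone spanned the full range, as for PIK3CA. Zelnorm tumours differed by a log2 fold change of -0.08 (SE 0.15; 95% interval -0.42 to 0.25; edgeR adjusted p = 1.00), and it was 0.05 without NC10 and -0.21 without NC4.

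PIK3R3, a shorter regulatory subunit of the same family, had the largest group difference of the 9 genes. It was at 32.8 CPM in NC10, 34.8 in NC4 and 31.5 in NC9, and at 33.7 in MBZ_254, 34.5 in MBZ_257 and 45.8 in MBZ_259. Only MBZ_259 lay above the controls, and the other two Zelnorm tumours were inside the control range. The group means were 33.0 ± 1.68 and 38.0 ± 6.75 CPM (SD, n = 3), and the log2 fold change was 0.20 (SE 0.14; 95% interval -0.12 to 0.52; edgeR adjusted p = 1.00). Without MBZ_259 it was 0.05. Relative to PIK3R1 the level of PIK3R3 was highest in MBZ_259 (log2 ratio 0.43 above the mean of the 6 tumours) and lowest in NC10 (-0.39), and the group difference of the ratio, 0.26, was smaller than the SD among the controls (0.31) and among the Zelnorm tumours (0.27). It fell to 0.11 without MBZ_259 and 0.13 without NC10 and was 0.43 without NC4.

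The 2 AKT kinase genes were the steadiest of the 9. AKT1 was at 216 CPM in NC10, 257 in NC4 and 208 in NC9, and at 233 in MBZ_254, 216 in MBZ_257 and 239 in MBZ_259. The control NC4 was the highest and the control NC9 the lowest. AKT2 was at 133 CPM in NC10, 150.5 in NC4 and 134 in NC9, and at 142 in MBZ_254, 145 in MBZ_257 and 140 in MBZ_259, so that the Zelnorm tumours lay within the control range. The highest tumour exceeded the lowest 1.24-fold for AKT1 and 1.13-fold for AKT2, and only 4.06% of genes at or above 10 CPM had a smaller SD than AKT2. The log2 fold change was 0.02 for AKT1 (SE 0.12; 95% interval -0.26 to 0.29) and 0.03 for AKT2 (SE 0.11; 95% interval -0.21 to 0.27), with an edgeR adjusted p of 1.00 for both. That of AKT1 ran from -0.04 without NC9 to 0.12 without NC4, and that of AKT2 from 0.00 without NC10 to 0.09 without NC4. The log2 ratio of AKT1 to AKT2 differed by -0.01 between groups, against an SD of 0.07 in control and 0.10 in Zelnorm tumours, and with 1 tumour left out the difference ran from -0.05 (MBZ_259) to 0.04 (MBZ_257).

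RPS6KB1, the S6 kinase that mTORC1 activates, was at 78.8 CPM in NC10, 52.5 in NC4 and 73.3 in NC9, and at 65.3 in MBZ_254, 69.8 in MBZ_257 and 63.3 in MBZ_259. NC4 was the lowest and NC10 the highest, with the Zelnorm tumours between them. Between groups the log2 fold change was -0.04 (SE 0.15; 95% interval -0.38 to 0.29; edgeR adjusted p = 1.00), and it ran from -0.20 without NC4 to 0.07 without NC10, with 0.02 without NC9. The SD was 13.9 CPM among controls and 3.31 CPM among Zelnorm tumours, a difference in spread that was not tested.

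EIF4EBP1, the repressor that mTORC1 releases from the cap-binding factor, was at 21.8 CPM in NC10, 27.4 in NC4 and 24.1 in NC9, and at 23.5 in MBZ_254, 28.9 in MBZ_257 and 23.3 in MBZ_259. MBZ_257 and NC4 were the highest, 1 of each group. The groups differed by a log2 fold change of 0.05 (SE 0.15; 95% interval -0.28 to 0.38; edgeR adjusted p = 1.00), with -0.06 without MBZ_257, -0.03 without NC10 and 0.14 without NC4. The log2 ratio of EIF4EBP1 to RPS6KB1 was 0.49 above the mean of the 6 tumours in NC4 and -0.42 in NC10, both controls, and the group difference of 0.07 was smaller than the SD of 0.47 in control and 0.11 in Zelnorm tumours. This difference was -0.13 without NC10 and 0.33 without NC4.

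The intervals give the size of change that these 6 tumours allow in the edgeR fit. For 8 of the 9 genes the 95% interval of the fold change lay within 1.5-fold in either direction. The exception was IRS2, whose interval ran from 0.67-fold to 1.74-fold, and all 9 intervals lay within 2-fold in this fit. For IRS2 the SE of the log2 fold change depended on the method. It was 0.31 here, 0.16 without the count filter, 0.38 with a robust fit and 0.44 with DESeq2, so a 2-fold change of IRS2 is not excluded. An adjusted p of 1.00 does not show that the groups are alike, and smaller changes than these bounds were not resolved.

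**Figure D2:**
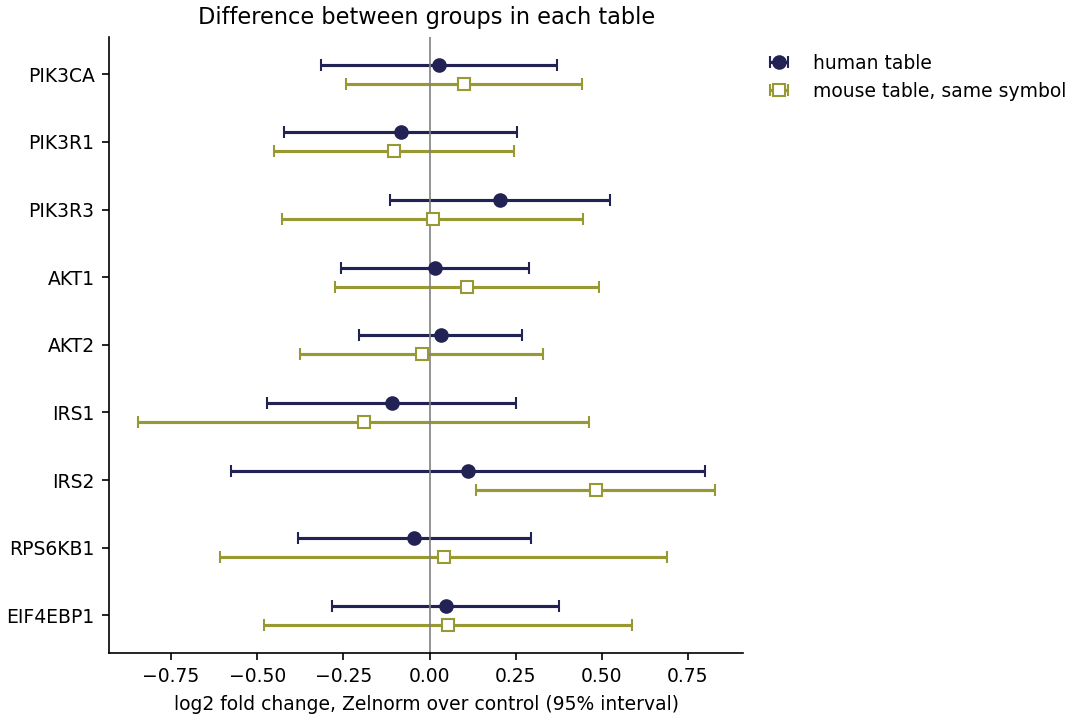
Log2 fold change of Zelnorm over control with its 95% interval for the 9 genes in the human table (filled circles) and for the same-symbol genes in the mouse table (open squares), n = 3 tumours per group. Of the 18 intervals only that of mouse Irs2, from 0.14 to 0.83, does not cross 0, before adjustment over all genes.

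Within the control group, NC4 stood apart from NC10 and NC9 in opposite ways for different components. It had the lowest level of 3 of the 9 genes, PIK3CA, PIK3R1 and RPS6KB1, and the highest of 2, AKT1 and AKT2. NC10 had the highest level of PIK3CA, PIK3R1 and RPS6KB1 and the lowest of AKT2 and EIF4EBP1. In the human table NC4 had the highest summed level of host markers (1363 CPM), most of it COL1A1 (919 CPM) and COL3A1 (316 CPM). As a mean over markers of log2 CPM minus the mean of the 6 libraries, MBZ_259 (0.78) was slightly above NC4 (0.76). The mouse share of NC4 was 22.3%. The part of the host markers or of the mouse share in the pattern was not tested.

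**Figure D3:**
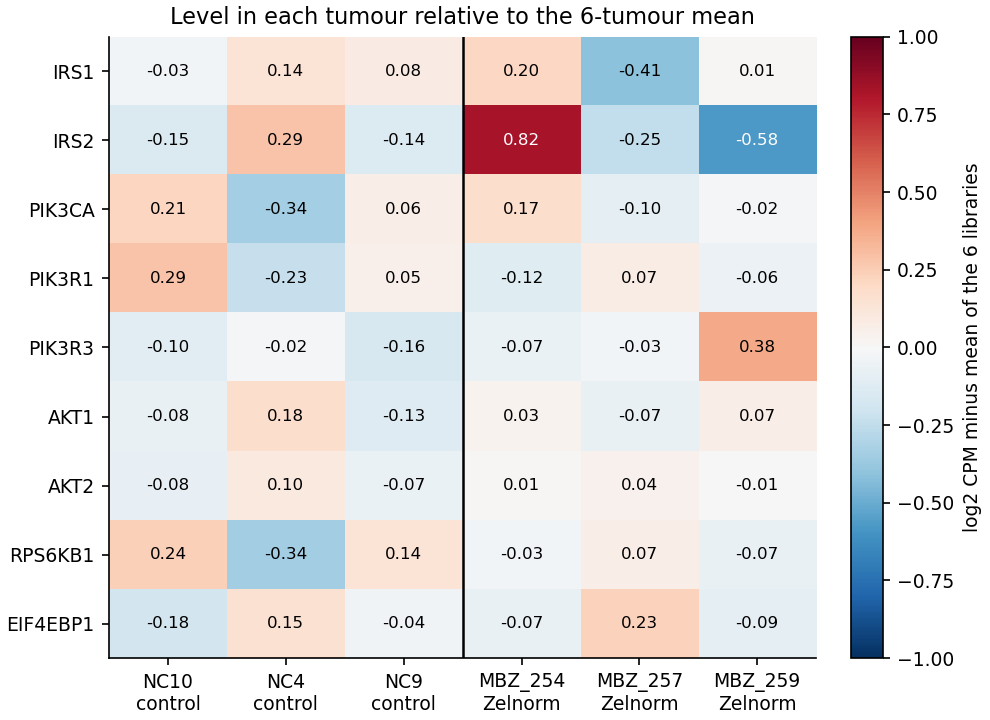
Level of each gene in each tumour as log2 CPM minus the mean of the 6 libraries, with controls left and Zelnorm tumours right of the line (red above, blue below the mean). NC4 is low for PIK3CA (-0.34) and RPS6KB1 (-0.34), and the largest deviations are those of IRS2 in MBZ_254 (0.82) and MBZ_259 (-0.58).

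For the 3 genes with the widest range, the tested genes with the most similar levels over the 6 tumours were sought among 10498 genes with a mean of at least 10 CPM, after 331 members and genes with clone names were left out. The measure was the root mean square (RMS) difference of log2 CPM after the mean of each gene was subtracted. Nearest to IRS2 were MXI1, an antagonist of MYC (RMS 0.08), KCTD11 (RMS 0.08) and SLC2A1, the glucose transporter GLUT1 (RMS 0.10). SLC2A1 was at 96.7, 134 and 99.1 CPM in NC10, NC4 and NC9 and at 191, 101 and 86.3 CPM in MBZ_254, MBZ_257 and MBZ_259. Like IRS2, it was highest in MBZ_254, second highest in NC4 and lowest in MBZ_259. The member nearest to IRS2 was IRS1, at an RMS of 0.37.

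Nearest to RPS6KB1 were IL6ST, the shared receptor chain of the interleukin-6 family (RMS 0.02), HECTD2, a ubiquitin ligase (RMS 0.02), and REEP3 (RMS 0.03), each lowest in NC4 and highest in NC10. IL6ST was at 425, 286 and 401 CPM in the controls NC10, NC4 and NC9 and at 349, 369 and 346 CPM in MBZ_254, MBZ_257 and MBZ_259. The member nearest to RPS6KB1 was PIK3R1 (RMS 0.07). Nearest to IRS1 were JAK1, a kinase of cytokine receptors (RMS 0.03), CCDC80 (RMS 0.04) and FSCN1, an actin-bundling protein (RMS 0.04), each lowest in MBZ_257 and highest in MBZ_254. The member nearest to IRS1 was AKT1, at an RMS of 0.18. These matches over 6 tumours are descriptions.

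**Figure D4:**
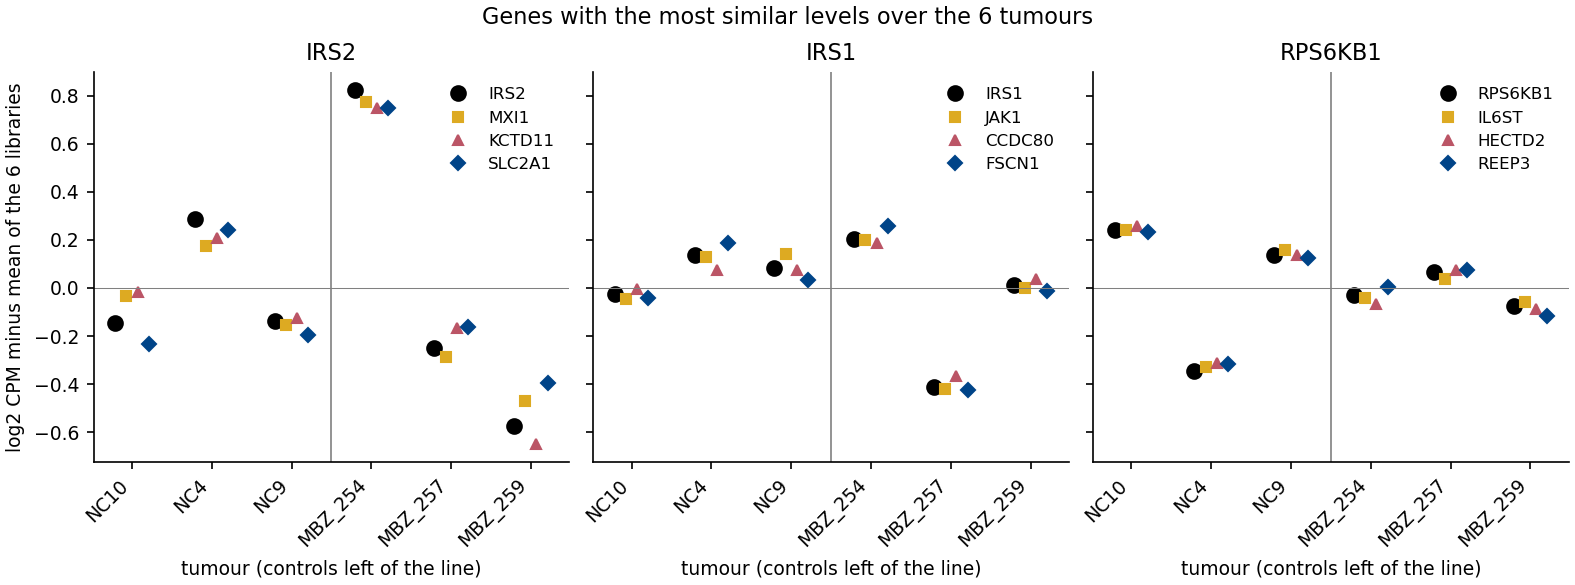
Level in each tumour, as log2 CPM minus the mean of the 6 libraries, of IRS2, IRS1 and RPS6KB1 (black circles) and of the 3 genes with the most similar levels (coloured symbols), controls left and Zelnorm tumours right of the line. IRS2 and its neighbours are highest in MBZ_254, IRS1 and its neighbours are lowest in MBZ_257, and RPS6KB1 and its neighbours are lowest in NC4.

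The rest of the pathway was read from 10 lists of 142 genes, of which 133 were tested. Of these, 65 lay higher and 68 lower in Zelnorm tumours, with a median log2 fold change of -0.01. Under edgeR's quasi-likelihood test 0 of the 133 passed, and 5 of them, or 3.76%, had groups that did not overlap, against 4.82% of all human genes. At an unadjusted p under 0.05 there was 1 gene, SESN3, or 0.752% against 1.31% of all human genes. The median of 8 of the 10 lists changed sign with 1 tumour left out, most often NC4 (4 lists), so those medians give no direction.

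**Figure D5:**
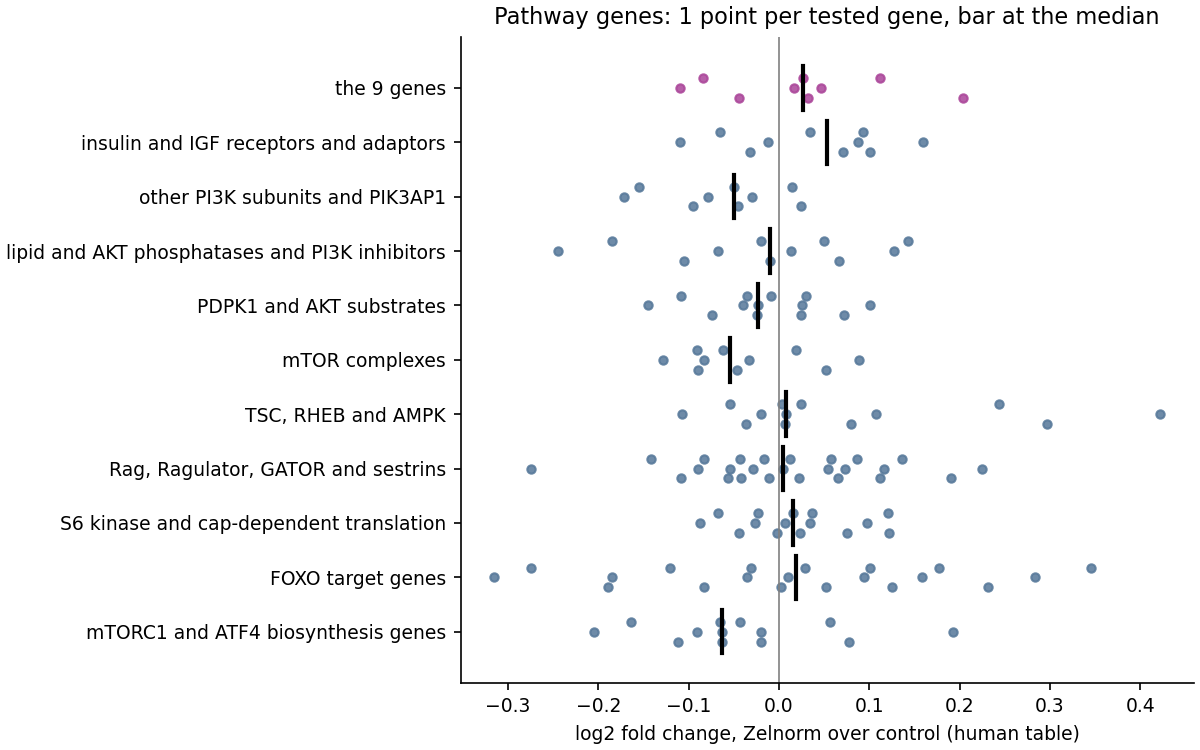
Log2 fold change of Zelnorm over control in the human table for the 9 genes (top row) and for 10 lists of pathway genes, with 1 point per tested gene and a black bar at the median of each row. All medians lie between -0.06 and 0.05, and the point farthest from 0 is DDIT4 at 0.42.

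Upstream of the adaptors, 6 of 10 tested insulin and insulin-like growth factor (IGF) receptor and adaptor genes lay higher and 4 lower (median log2 fold change 0.05). The controls averaged 28.5 ± 2.94 CPM of INSR, the insulin receptor, against 30.6 ± 3.93 with Zelnorm, and 203 ± 14.8 CPM of IGF1R against 201 ± 6.44 (SD, n = 3). The 3 genes of this list with the smallest p were the adaptors GAB1 (log2 0.16, SE 0.12), SH2B1 (0.09, SE 0.10) and GRB10, which binds and restrains the receptors (-0.11, SE 0.13). Of 9 further genes, the other PI3K subunits and the PI3K adaptor PIK3AP1, 2 lay higher and 7 lower (median -0.05), with PIK3R2, the remaining long regulatory subunit, at 68.7 ± 10.1 and 60.9 ± 9.92 CPM (log2 -0.17, SE 0.15), PIK3AP1 at a log2 fold change of -0.16 (SE 0.21) and PIK3C2B at -0.10 (SE 0.15). None of these genes passed the test (edgeR adjusted p = 1.00).

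The phosphatases and inhibitors that oppose PI3K and AKT split 5 higher and 6 lower of 11 (median log2 fold change -0.01). The log2 fold change was 0.14 for INPP5E (SE 0.13), -0.18 for PIK3IP1, which inhibits the catalytic subunit (SE 0.18), and 0.13 for the AKT phosphatase PHLPP2 (SE 0.13). The groups did not overlap for 1 gene of this list, INPP4A, a lipid phosphatase named after its values were seen, at 35.7 to 36.7 CPM in controls and 33.5 to 35.3 CPM with Zelnorm. Of PDPK1, the kinase that activates AKT, and the AKT substrates 5 of 13 lay higher and 8 lower (median -0.02). BAD, a promoter of cell death that AKT silences, was at 38.5 ± 7.27 and 34.8 ± 1.89 CPM (SD, n = 3; log2 -0.15, SE 0.15), with CHUK at 0.10 (SE 0.13) and TBC1D1 at -0.11 (SE 0.14). Subunits of the mTOR complexes lay higher in 3 and lower in 7 of 10, with a median of -0.05 that was 0.03 without NC4, -0.01 without MBZ_259 and -0.11 without NC9. MTOR itself was at 90.2 to 109 CPM in controls and 94.5 to 96.1 CPM with Zelnorm (log2 -0.03, SE 0.11), and TELO2 (-0.09, SE 0.13), DEPTOR, an inhibitor of the complexes (0.09, SE 0.14), and MLST8 (-0.08, SE 0.15) had the smallest p.

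The brake and the fuel sensor of mTORC1, the list of TSC, RHEB and AMPK genes, held 9 higher and 4 lower of 13 (median log2 fold change 0.01). STK11, the kinase that activates AMPK, was at 28.0 CPM in NC10, 29.5 in NC4 and 28.4 in NC9, and at 34.7 in MBZ_254, 32.9 in MBZ_257 and 34.1 in MBZ_259. All 3 Zelnorm tumours lay above the controls (log2 0.24, SE 0.11), but the gene did not pass (edgeR unadjusted p = 0.0538, adjusted p = 1.00). RHEB, the GTPase that switches mTORC1 on, was at 166, 157 and 155 CPM in the controls and at 143, 151 and 149 CPM in the Zelnorm tumours, without overlap (log2 -0.11, SE 0.10; adjusted p = 1.00). DDIT4, a stress-induced inhibitor of mTORC1, was at 86.2 ± 32.9 and 115 ± 25.9 CPM (SD, n = 3; log2 0.42, SE 0.25), and the control NC4 at 124 CPM was above 2 of the 3 Zelnorm tumours.

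Amino acid sensing genes, the Rag GTPases with the Ragulator and GATOR complexes and the sestrins, held 13 higher and 12 lower of 25 (median log2 fold change 0.00). SESN3, a sestrin that restrains mTORC1 and a known target of FOXO factors, was at 34.9 CPM in NC10, 33.6 in NC4 and 35.7 in NC9, and at 29.9 in MBZ_254, 27.4 in MBZ_257 and 28.9 in MBZ_259. Each Zelnorm tumour lay below each control (log2 -0.27, SE 0.11), with an unadjusted p of 0.0351 and an adjusted p of 1.00 in edgeR. SESN2 went the other way (log2 0.23, SE 0.15), with overlapping groups, and SEH1L had a log2 fold change of 0.12 (SE 0.11). Downstream, the S6 kinase and cap-dependent translation genes held 9 higher and 6 lower of 15 (median 0.02), with RPS6, the substrate of S6 kinase, at 712 ± 26.8 and 774 ± 59.3 CPM (SD, n = 3; log2 0.12, SE 0.12), EIF4A2 at a log2 fold change of 0.12 (SE 0.12) and EIF4E2 at 0.10 (SE 0.12).

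The remaining lists hold target genes of FOXO factors, which AKT keeps out of the nucleus, and of ATF4, which mTORC1 promotes. Whether these genes followed the activity of the pathway in these tumours was not tested. Of 20 tested FOXO target genes 12 lay higher and 8 lower (median log2 fold change 0.02), 0 passed, and the groups did not overlap for 1, SESN3. KLF6 differed by 0.34 on the log2 scale (SE 0.17) and BCL2L11, which encodes the cell death protein BIM, by -0.19 (SE 0.13). Of 13 mTORC1 and ATF4 biosynthesis genes 3 lay higher and 10 lower (median -0.06), and 0 passed. PHGDH, the first enzyme of serine synthesis, was at 50.7, 56.0 and 54.2 CPM in the controls and at 42.1, 47.4 and 50.1 CPM in the Zelnorm tumours, all of which were lower (log2 -0.20, SE 0.11; edgeR adjusted p = 1.00). That of MTHFD2, a mitochondrial folate enzyme, was 0.19 (SE 0.12), and that of SLC7A5, an amino acid transporter, was -0.16 (SE 0.14). The median of this list turned to 0.05 without NC4 and to 0.02 without MBZ_254.

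The mouse table gave a second reading of the same genes, in counts assigned to the host. The mouse counterparts made up 8.49% (Irs1 in MBZ_257) to 51.7% (Pik3r1 in NC4) of the counts of a gene in both tables. Pik3r1 had the largest mouse share, 28.5% to 51.7%, above the 15.1% to 23.4% of all counts in each tumour. Of the 9 counterparts 6 lay higher and 3 lower in Zelnorm tumours, and 0 passed edgeR's quasi-likelihood test over the 14459 tested mouse genes, of which 0% passed. The unadjusted p was under 0.05 for 1 of 9, against 1.75% of all mouse genes, and groups did not overlap for 1 of 9, against 5.52%.

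That gene was Irs2 (ENSMUSG00000038894, chromosome 8 from 10984681 to 11008458 on the minus strand of GRCm38). It was at 23.3 CPM in NC10, 25.3 in NC4 and 25.4 in NC9, and at 36.3 in MBZ_254, 30.9 in MBZ_257 and 36.0 in MBZ_259. All 3 Zelnorm tumours lay above the controls, on 145 to 315 counts per library. The log2 fold change was 0.48 (SE 0.15; 95% interval 0.14 to 0.83), with an unadjusted p of 0.0124 and an adjusted p of 1.00 in edgeR, so the difference did not pass over all mouse genes. It was 0.43 to 0.57 with 1 tumour left out. In the human table of the same tumours IRS2 was highest in MBZ_254 and lowest in MBZ_259, and the difference between the tables was not tested. Irs2 made up 11.0% of the counts of the gene in both tables in NC10, 11.1% in NC4 and 11.6% in NC9. It made up 11.8% in MBZ_254, 11.1% in MBZ_257 and 20.9% in MBZ_259. The part that the division of reads between the tables had in these values was not tested.

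Host Rps6kb1 (ENSMUSG00000020516, chromosome 11 from 86498871 to 86544805 on the minus strand) was at 129.6, 82.7 and 134 CPM in NC10, NC4 and NC9 and at 90.7, 165 and 100.2 CPM in MBZ_254, MBZ_257 and MBZ_259. NC4 was the lowest of the 6 tumours in the mouse table as in the human one, whereas MBZ_257 was highest in the mouse table only. The log2 fold change was 0.04 (SE 0.28; edgeR adjusted p = 1.00). Host Pik3ca was at 62.4, 59.0 and 66.2 CPM in the controls and 72.0, 57.5 and 71.2 CPM in the Zelnorm tumours, and host Akt1 at 316, 310 and 294 CPM against 285, 376 and 331 CPM. The groups overlapped for both. The human and mouse values of a tumour come from the same library, and the sources used here do not say how reads were divided between the tables.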

How the data were processed

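RNA of 3 control and 3 Zelnorm tumours was sequenced. The authors deposited estimated counts, not scaled, in a table of human and a table of mouse genes; the submitters' processing notes name GRCh38, GRCm38, HISAT2, StringTie, edgeR and DESeq2 with neither a role nor a version. Of values above 0, 38.0% (human) and 27.0% (mouse) were not whole, and counts were rounded. Column names match the group prefix in sample titles, so libraries were tied to groups only. Rows with no gene name (574 human, 856 mouse; 0.317% to 0.518% of counts) were left out. Precision is limited by 3 tumours per group.

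Each whole table was fitted with edgeR 4.0.16 in R 4.3.3 (filterByExpr, TMM, glmQLFit, glmQLFTest, two-sided), p-values were adjusted across all tested genes by the Benjamini-Hochberg method, and a gene was called at an adjusted p under 0.05. CPM uses TMM-scaled totals of tested genes; log2 CPM has a prior count of 2. The code was tested on simulated data. Mouse coordinates are from GENCODE vM21.

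Members and lists were chosen with earlier results of these data known. Named were the 9 members, MTOR, INSR, IGF1R, the 3 genes of each list with the smallest p, and the 3 genes nearest in pattern to the 3 members with the widest range. Marker genes were also named, and INPP4A was named after its values were seen. IGF2 and SOD2 were not used because each symbol had more than 1 row, and some genes are not reported here. Alternatives were DESeq2 1.42.0, limma-voom (limma 3.58.1), other scalings and filters, a robust fit, the mouse to human count ratio as covariate, and each library left out.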

Additional observations from a re-analysis of the deposited data

How the results depend on the processing

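Over 15 alternatives for each of the 9 genes none was called (smallest adjusted p = 0.998), and in 122 of 135 refits the sign stayed. It turned in 12 refits with 1 library left out and in 1 other: with limma-voom the log2 fold change of IRS2 was -0.016. With 1 library left out, the ranges were -0.11 to 0.15 for PIK3CA, -0.21 to 0.051 for PIK3R1, 0.047 to 0.28 for PIK3R3, -0.038 to 0.12 for AKT1, 0.0031 to 0.091 for AKT2, -0.25 to 0.045 for IRS1, -0.42 to 0.37 for IRS2, -0.20 to 0.073 for RPS6KB1 and -0.064 to 0.14 for EIF4EBP1. Over all human genes edgeR called 0 (247 at an unadjusted p under 0.05), limma-voom 0 (260), DESeq2 2 (258) and edgeR without the count filter 61 (903 of 33171 genes), none of them a member; the cause was not tested. With 1 library left out 0 were called. With 1 library left out, list medians ran from -0.025 to 0.068 for receptors and adaptors, -0.098 to -0.045 for PI3K subunits and PIK3AP1, -0.051 to 0.055 for phosphatases and inhibitors, -0.045 to 0.019 for PDPK1 and AKT substrates, -0.11 to 0.032 for mTOR complexes, 0.027 to 0.082 for TSC, RHEB and AMPK, -0.0089 to 0.044 for Rag, Ragulator, GATOR and sestrins, -0.0056 to 0.089 for S6 kinase and translation, -0.057 to 0.10 for FOXO targets and -0.083 to 0.049 for mTORC1 and ATF4 genes. With library totals in place of TMM the median turned for 3 lists, to -0.0084 for TSC, RHEB and AMPK, -0.011 for Rag, Ragulator, GATOR and sestrins and -0.0065 for S6 kinase and translation, and with upper-quartile factors for Rag, Ragulator, GATOR and sestrins (-0.0028). The ratio differences ran from 0.11 to 0.43 for PIK3R3 over PIK3R1, -0.054 to 0.041 for AKT1 over AKT2 and -0.13 to 0.33 for EIF4EBP1 over RPS6KB1. For IRS2 over IRS1 the range was wider, from -0.15 to 0.45. With all 6 tumours that difference was 0.13, against an SD of 0.19 in control and 0.61 in Zelnorm tumours. In the mouse table, where DESeq2 called 0 of the 9, ranges with 1 library left out that crossed 0 were -0.13 to 0.095 for Pik3r3, -0.089 to 0.045 for Akt2, -0.38 to 0.099 for Irs1, -0.26 to 0.19 for Rps6kb1 and -0.16 to 0.21 for Eif4ebp1. No paired analysis was possible because the columns carry no replicate number that a label repeats.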
